A study of Mus musculus with 35 samples.

Results

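Bcl6 encodes a BTB and zinc finger transcription factor that represses its targets through bound corepressors, and it is best known as the factor that germinal centre B cells need to form. In textbook B-cell biology it holds back Prdm1, the gene of the plasma cell regulator Blimp-1, so that Bcl6 and the plasma cell programme oppose each other. Deregulated Bcl6 is a known driver of B-cell lymphoma. Here the gene was followed through all probe sets annotated to it, on each array and in each of 9 groups of mouse B cells and lymphoid tumours. That annotation named 2 of the 22626 probe sets compared, 1421818_at and 1450381_a_at, both given below as log2 intensities. The one with the higher mean over all arrays, 1421818_at, is called the first probe set, and 1450381_a_at the second.

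The 35 samples, each on its own Affymetrix Mouse 430A2 array, comprised 13 tumours and 22 preparations of sorted wild-type B cells. Of the tumours, 3 were labelled Myc/Bcl6 (Bcl6/Myc dual-transgenic), 4 were labelled Bcl6 (Bcl6 knock-in, of a Bcl6 transgenic strain) and 6 came from Lig4/p53 double knock-out mice. In the published Bcl6 knock-in mouse, by background knowledge, a Bcl6 cassette was placed in the immunoglobulin heavy chain locus and is driven from there in B cells. Thus 2 of the 3 tumour models carry altered Bcl6, and which part of a transgene either probe set reads was not tested. The sorted bone marrow cells were pro-B cells (B220+, CD43-high, IgM-, 2 arrays of strain 129 and 1 of B6), pre-B cells (B220+, CD43-low, IgM-, 3 arrays, strain 129) and plasma cells (B220-low, Cd138+, Cd93-, 3 arrays, B6). The spleen gave transitional B cells (B220+, Cd93+, 4 arrays, strain 129), germinal centre B cells (B220+, PNA-high, 5 arrays, B6) and plasmablasts (B220+, Cd138+, Cd93-, 4 arrays, B6). Neither ages nor whether replicates were separate mice or pools are given, so p-values measure the spread between these samples, which may be partly technical.

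Some arrays and labels need naming before the results. Pro-B replicate 1, pre-B replicate 2 and replicate 2 of the tumours labelled Bcl6 had a narrow spread of values, with interquartile ranges of 2.08, 2.03 and 2.15. The 3 tumours labelled Myc/Bcl6 followed with 2.32 to 2.85, while no remaining array was under 3.25. The 18S ribosomal RNA control probe sets averaged 4.14 to 6.15 in the 13 tumours and 4.02, 4.21 and 7.38 in plasma cell replicates 1, 2 and 3, against 10.04 to 11.28 in the other 19 sorted arrays. The 3′ minus 5′ difference of the Actb and Gapdh controls, a measure of RNA integrity that is larger in degraded RNA, ran from 2.25 to 4.69 among tumours, against 4.59, 4.46 and 0.45 in plasma cell replicates 1, 2 and 3 and 0.68 to 2.95 in the other sorted arrays. Myc, the other gene of the Myc/Bcl6 label, was lowest of all 9 groups in the tumours that carry that label (5.11, 5.41 and 4.93), against 10.10 to 11.31 in Lig4/p53 tumours and 7.75 to 10.23 in germinal centre cells. Sdc1, which encodes the Cd138 sort marker, averaged 4.73 ± 0.92 in plasma cells (SD, n = 3), below its 8.75 ± 2.23 in plasmablasts (SD, n = 4). Lig4 and Trp53 were not analysed here.

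RefSeq (GRCm38.p6) lists 2 start sites for Bcl6, on the minus strand of chromosome 16, and the 250 bases before each are shown because Bcl6 protein is known to bind and repress its own gene. Capitals mark matches to TTCNNNGAA, a palindromic core resembling the sites that STAT factors and Bcl6 itself bind. The bases at chr16:23988853-23989102 hold 1 match, TTCTCAGAA, which starts 118 bases before the start site. Those at chr16:23981284-23981533 hold 3 matches, TTCCTGGAA, TTCTGTGAA and TTCCGGGAA, which start 168, 122 and 88 bases before it.
Bcl6 start 1: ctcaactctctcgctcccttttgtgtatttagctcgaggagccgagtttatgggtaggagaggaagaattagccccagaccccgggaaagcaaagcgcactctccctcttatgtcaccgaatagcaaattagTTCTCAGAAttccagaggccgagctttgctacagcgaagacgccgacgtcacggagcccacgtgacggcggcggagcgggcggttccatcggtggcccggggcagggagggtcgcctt
Bcl6 start 2: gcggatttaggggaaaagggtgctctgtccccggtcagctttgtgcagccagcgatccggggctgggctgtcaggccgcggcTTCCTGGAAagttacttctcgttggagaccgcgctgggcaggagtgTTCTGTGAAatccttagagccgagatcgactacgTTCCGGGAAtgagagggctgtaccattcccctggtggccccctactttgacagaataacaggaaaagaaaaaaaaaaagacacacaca
Of 32851 windows of that length in the table, 7.0% hold TTCNNNGAA. CCATNTT, a core of the sites of Yy1, and TTTC followed after any 2 bases by TTTC, a pattern of interferon regulatory factor sites, were searched on both strands and are held by 12.4% and 3.0% of windows, and neither occurs in the bases shown. A match is a description of the letters and was not tested as a site.

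Bcl6 was highest in germinal centre cells and lowest in plasma cells by both probe sets. For the first probe set, the group means ± SD were 11.22 ± 0.36 in germinal centre cells (n = 5), 9.75 ± 0.42 in transitional cells (n = 4), 9.39 ± 0.31 in plasmablasts (n = 4), 8.89 ± 0.54 in pro-B cells (n = 3) and 7.83 ± 2.68 in pre-B cells (n = 3). The tumours came below, with 7.17 ± 0.97 in those labelled Bcl6 (n = 4), 6.68 ± 2.46 in those labelled Myc/Bcl6 (n = 3) and 5.62 ± 0.63 in Lig4/p53 tumours (n = 6), and plasma cells were last with 3.62 ± 0.18 (n = 3). Among neighbours in this order, the array ranges did not overlap between germinal centre and transitional cells, nor between Lig4/p53 tumours and plasma cells. The other neighbouring pairs overlapped. These are bulk samples, in which fewer cells of a type and less RNA per cell cannot be told apart. Without the arrays of narrow spread, pre-B cells averaged 9.37 and pro-B cells 9.12.

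The second probe set gave lower intensities, which cannot be set against those of the first because probe sets differ in brightness. Its means were 6.18 ± 0.70 in germinal centre cells, 5.76 ± 0.35 in transitional cells, 5.55 ± 0.67 in plasmablasts, 5.10 ± 0.28 in pre-B cells and 4.50 ± 1.30 in pro-B cells. They were 4.76 ± 0.40 in tumours labelled Myc/Bcl6, 4.26 ± 0.53 in tumours labelled Bcl6, 3.67 ± 0.27 in Lig4/p53 tumours and 3.52 ± 0.67 in plasma cells (SD, n as for the first probe set). Germinal centre, transitional and plasmablast arrays led the order and Lig4/p53 tumours and plasma cells closed it in both probe sets, while the middle 4 places changed. Every neighbouring pair of groups in the order of the second probe set overlapped. Of 12 comparisons, the probe sets had the same sign in 10, and the first passed the test in 8 and the second in 5, all 5 shared. With every array given equal weight they passed in 5 and 6.

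**Figure D1:**
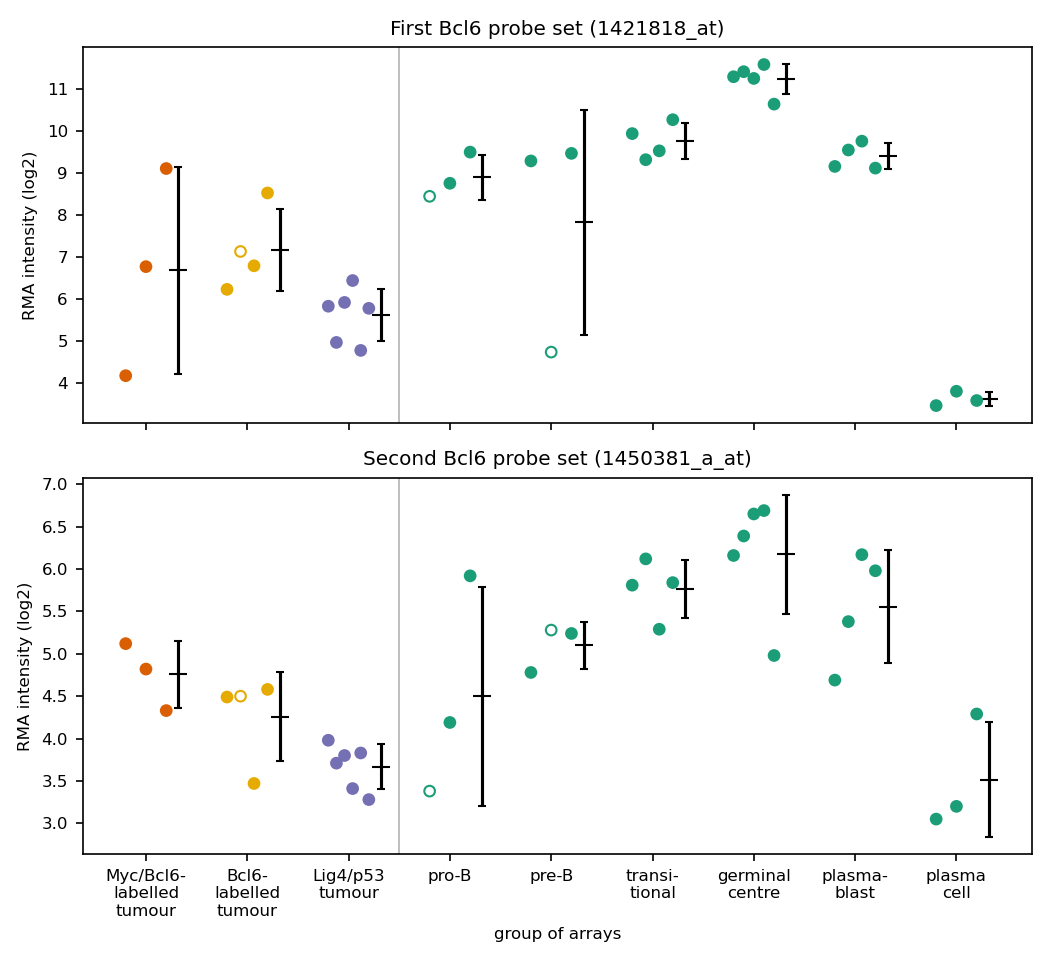
Log2 intensity of both Bcl6 probe sets on each array, by group, with the group mean and SD in black and the 3 arrays of narrow spread as open points. The first probe set is at 10.63 or above in all germinal centre arrays and at 3.81 or below in all plasma cell arrays.

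Early B-cell stages were compared first. On the first probe set Bcl6 had 9.28, 4.74 and 9.46 in pre-B cells, against 8.44, 8.75 and 9.49 in pro-B cells. The low value of 4.74 is that of the pre-B array of narrow spread, and the groups overlap. With array weights the difference was 0.11 ± 0.41 (log2, SE), with an adjusted p of 0.966 (limma, Benjamini-Hochberg over all probe sets), in a comparison where 0.53% of probe sets passed. With equal weights it was -1.07 ± 0.75 (0.566, 0.19% passing). On the second probe set the arrays had 4.78, 5.28 and 5.24 in pre-B cells, against 3.38, 4.19 and 5.92 in pro-B cells, again overlapping (-0.10, not called). A test of 3 against 3 arrays cannot give an exact permutation p below 0.1, and Bcl6 gave 0.8.

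From pre-B to transitional cells, Bcl6 on the first probe set had 9.93, 9.31, 9.52 and 10.26 in transitional cells, against the 9.28, 4.74 and 9.46 of pre-B cells. Apart from the array of narrow spread the values lie close together. The weighted difference was 0.45 ± 0.40 with an adjusted p of 0.57 (limma), where 7.71% of probe sets passed, and with equal weights 1.93 ± 0.70 (0.122, 4.96% passing). By the second probe set Bcl6 had 5.81, 6.12, 5.29 and 5.84 in transitional cells, every value above the pre-B range of 4.78 to 5.28, with a difference of 0.73 and an adjusted p of 0.551 (limma). The mean over 10 granulocyte genes was 9.94 to 10.56 in pro-B and 8.83 to 11.30 in pre-B cells, against 3.82 to 5.57 in transitional cells. That over 4 erythroid genes was 5.98 to 6.74 in pre-B cells, against 3.53 to 4.03. The part of such other cells in the Bcl6 values of these stages was not tested.

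At the germinal centre stage, where Bcl6 is required, the first probe set had 11.28, 11.40, 11.24, 11.57 and 10.63 in germinal centre cells, against 9.93, 9.31, 9.52 and 10.26 in transitional cells. Each of the 5 germinal centre arrays stood above each of the 4 transitional arrays. Bcl6 was 2.9-fold higher, a log2 difference of 1.54 ± 0.27 with an adjusted p of 0.000182 by weighted limma, in a comparison where 43.9% of all probe sets passed. The exact two-sided permutation p was 0.00794 (0.0228 adjusted over the 12 comparisons). With equal weights the difference was 1.47 ± 0.62 and did not pass (limma adjusted p = 0.115, 14% of probe sets passing), and with strain as a covariate it was 0.64 ± 1.0 (adjusted p = 0.94). Germinal centre cells were B6 and transitional cells 129, so stage and strain were told apart through the pro-B arrays alone. On the second probe set the values were 6.16, 6.39, 6.65, 6.69 and 4.98 in germinal centre cells, against 5.81, 6.12, 5.29 and 5.84 in transitional cells. Replicate 5, lowest on both probe sets, lies under all transitional arrays here, and the difference of 0.56 ± 0.43 did not pass (limma adjusted p = 0.296).

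Other genes of the germinal centre rose with it. Of 8 germinal centre genes measured among 14 listed, 6 were higher in germinal centre than in transitional cells and none lower (median difference 1.71, against -0.28 over all probe sets, where 13% of probe sets were higher and 30.9% lower). Basp1 was higher by 3.82 ± 0.37 (adjusted p = 4.3e-07), Gcsam, a signalling adaptor named for germinal centres, by 3.88 ± 0.40 (9.85e-07), Fas, a death receptor, by 2.95 ± 0.32 (1.76e-06) and the histone methyltransferase gene Ezh2 by 1.90 ± 0.32 (0.000131). With equal weights 5 of the 8 were higher, where 5.27% of probe sets were. Of all called probe sets 29.6% were higher in germinal centre cells as deposited, 44.7% after renewed quantile normalization and 46.6% after equal medians.

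Of 18 known regulators of Bcl6 measured, 4 rose and 6 fell between transitional and germinal centre cells, where 13% of probe sets were higher and 30.9% lower. With equal weights 2 rose and 1 fell, where 5.27% of probe sets were higher and 8.68% lower. Mef2b, an activator of Bcl6 transcription in germinal centre B cells, was at 6.39 to 8.07 in germinal centre cells, against 2.98 to 5.05 in transitional cells. These ranges do not overlap, and Mef2b rose by 3.36 ± 0.40 (limma adjusted p = 3.73e-06). Pou2af1, a coactivator of octamer factors, rose by 1.45 ± 0.27 (0.000291), while Pax5, a B-lineage identity factor, fell by 1.25 ± 0.25 (0.000579) and Foxo1 by 0.90 ± 0.23 (0.00334). Irf4, which represses Bcl6 at high doses, had 9.38, 9.59, 10.43, 10.89 and 11.39 in germinal centre cells, against 11.65 to 11.80 in transitional cells, and fell by 1.30 ± 0.44 (0.0209). Irf8 did not pass (0.43 ± 0.32, 0.286).

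Known targets of Bcl6 repression did not move as a block when Bcl6 was higher. Of 18 measured among 23 listed, 4 rose and 6 fell in germinal centre cells, with a median of -0.50 beside -0.28 over all probe sets. Of all probe sets 13% were higher and 30.9% lower, so the share of targets that fell was near that of all probe sets. With equal weights 2 targets rose and 2 fell, where 5.27% of probe sets were higher and 8.68% lower. Myc, a driver of growth, had 7.75, 8.08, 7.90, 8.44 and 10.23 in germinal centre cells, against 10.69, 10.76, 10.84 and 11.06 in transitional cells. All 5 values lie below the transitional range, with replicate 5 nearest to it, and Myc fell by 2.49 ± 0.45 (limma adjusted p = 0.000232). Cd274, which encodes the checkpoint ligand PD-L1, also fell (-1.52 ± 0.35, 0.00155). Id2, an inhibitor of E proteins, and Cd44, an adhesion receptor, rose (2.01 ± 0.37, 0.00029, and 1.56 ± 0.31, 0.000479). Prdm1 had 5.58, 5.68, 6.14, 6.25 and 5.45 in germinal centre cells, against 6.59, 6.69, 6.23 and 6.37 in transitional cells, and its -0.56 ± 0.31 did not pass (0.151). Of 14 measured partners, which carry out repression with Bcl6, 2 rose and 3 fell (1 and 1 with equal weights), where 13% of probe sets were higher and 30.9% lower. Hdac3, the deacetylase of the NCoR complex, did not pass (-0.09 ± 0.24, 0.782).

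Markers of other cells moved in the same comparison. The mean over 8 of 10 listed T cell genes was 6.43 to 7.46 in germinal centre cells, against 4.81 to 5.21 in transitional cells, and Cd3e averaged 8.04 ± 0.47 against 5.27 ± 0.22 (SD, n = 5 and 4). The mean over 10 granulocyte genes was 6.46 to 8.58 in germinal centre cells, against 3.82 to 5.57 in transitional cells, and that over 8 macrophage genes 5.71 to 7.05 against 4.46 to 5.45. Follicular helper T cells also express Bcl6, and the mean over 5 of their markers was 4.84 to 5.11 in germinal centre cells, against 5.04 to 5.54 in transitional cells. Cxcr5 among them was also listed as a marker of mature B cells, so this mean does not read helper T cells alone. The part of these markers in the Bcl6 difference was not tested.

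Plasmablasts carried less Bcl6 than germinal centre cells. The first probe set had 9.15, 9.54, 9.75 and 9.11 in plasmablasts, against 11.28, 11.40, 11.24, 11.57 and 10.63 in germinal centre cells. The groups do not overlap, and the plasmablast values fall within the span of transitional and pro-B arrays. Bcl6 was 3.63-fold lower (-1.86 ± 0.20, adjusted p = 2.01e-06, weighted limma), where 22.1% of probe sets passed, with an exact permutation p of 0.00794 (adjusted 0.0228). With equal weights the difference was -1.84 ± 0.62 and did not pass (limma adjusted p = 0.212), in a fit where 0.831% of probe sets did. Its companion probe set had 4.69, 5.38, 6.17 and 5.98 in plasmablasts, overlapping the 4.98 to 6.69 of germinal centre cells, and was lower by weighted limma (-0.97 ± 0.31, adjusted p = 0.0301). That call was lost without germinal centre replicate 4 (-0.85, 0.0539), plasmablast replicate 1 (-0.51, 0.338) or plasmablast replicate 2 (-0.75, 0.147), with equal weights (-0.62, 0.818) and with these groups fitted alone (-0.95, 0.103).

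Of the 8 germinal centre genes 7 fell in plasmablasts and none rose, where 9.8% of probe sets were lower and 12.3% higher (3 fell with equal weights, where 0.659% were lower and 0.172% higher), among them Fas (-3.01 ± 0.24, limma adjusted p = 2.83e-08), Gcsam (-3.40 ± 0.30, 1.2e-07), Basp1 (-2.45 ± 0.27, 2.75e-06) and Efnb1, an ephrin (-1.39 ± 0.20, 5.59e-05). Of the 18 regulators 1 rose and 6 fell (0 and 2 with equal weights), led by Mef2b (-2.17 ± 0.29, 2.42e-05), Fbxo11, whose product marks Bcl6 protein for degradation (-1.24 ± 0.17, 2.71e-05), the early B-cell factor Ebf1 (-1.37 ± 0.19, 2.9e-05) and Pou2af1 (-1.32 ± 0.20, 7.19e-05). Irf4 and Irf8 did not pass (0.55 ± 0.32, 0.237, and -0.41 ± 0.23, 0.231). Of the 18 targets 3 rose, among them Myc (1.81 ± 0.33, 0.00049) and Prdm1 (0.93 ± 0.23, 0.00574). Ccl3, a chemokine (-2.65 ± 0.31, 5.94e-06), and Id2 (-1.69 ± 0.28, 0.000149) were the 2 that fell, and with equal weights 0 rose and 2 fell. Prdm1 had 7.18, 7.34, 6.38 and 5.52 in plasmablasts, against 5.45 to 6.25 in germinal centre cells, so 3 of 4 plasmablast arrays stood above that range and replicate 4 within it. Of 8 plasma cell genes, a list that shares Prdm1 and Irf4 with the targets, 5 rose and none fell, and with equal weights none passed. Of all called probe sets 55.6% were higher in plasmablasts as deposited and 38.1% after equal medians. The T cell mean was 5.33 to 5.64 in plasmablasts, below the 6.43 to 7.46 of germinal centre cells.

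Plasma cells had the least Bcl6 of all groups. The first probe set had 3.47, 3.81 and 3.59 in plasma cells, against 9.15, 9.54, 9.75 and 9.11 in plasmablasts. The gap between the groups is far wider than the spread within either. Bcl6 was 53-fold lower (-5.73 ± 0.24, adjusted p = 2.1e-14, weighted limma), where 48% of probe sets passed, and also with equal weights (-5.76 ± 0.70, 7.12e-06, 13.1% passing). The exact permutation p was 0.0286 (adjusted 0.0429), the smallest these group sizes allow. Against germinal centre cells it was 192-fold lower (-7.59 ± 0.22, limma adjusted p = 7.94e-17), where 53.7% passed, and with equal weights it differed by -7.60 ± 0.67 (7.04e-08, 18% passing). On the second probe set the plasma cell arrays had 3.05, 3.20 and 4.29, each below the 4.69 to 6.17 of plasmablasts, and Bcl6 fell by 2.19 (4.05e-05), a call lost without plasma cell replicate 1 (-1.63, 0.271) or 2 (-1.71, 0.271). The deposited values carry no detection calls, so whether either probe set was above background in plasma cells was not tested.

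RNA control values changed in the same step. The 18S controls were 4.02, 4.21 and 7.38 in plasma cells, against 10.19 to 10.86 in plasmablasts. With 18S as a covariate the Bcl6 difference was -4.16 ± 1.61 (limma adjusted p = 0.365), and with the 3′ minus 5′ difference it was -6.07 ± 0.70 (1.46e-05). Plasma cell replicate 3, whose 3′ minus 5′ difference of 0.45 was the smallest of all arrays, had a Bcl6 value of 3.59, between those of replicates 1 and 2. Whether 18S level and plasma cell stage each bear on Bcl6 cannot be told apart in these arrays. Marker means of other cells also differed without overlap. The granulocyte mean was 3.17 to 3.89 in plasma cells, against 6.45 to 8.40 in plasmablasts, and the T cell mean 4.03 to 4.76 against 5.33 to 5.64. The part of these markers in the Bcl6 difference was not tested.

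Of the regulators 3 rose and 10 fell between plasmablasts and plasma cells, where 27.8% of probe sets were higher and 20.2% lower. With equal weights 1 rose and 6 fell, where 13.1% of probe sets passed in either direction. The regulators of smallest p with array weights were Spib, an Ets factor of B cells (-1.74 ± 0.24, limma adjusted p = 3.43e-06), Fbxo11 (1.29 ± 0.20, 1.47e-05), Ebf1 (-1.20 ± 0.22, 0.000116) and Pax5 (-1.02 ± 0.22, 0.000512). Irf8 fell as well (-1.08 ± 0.28, 0.00269), and Irf4 did not pass (-0.88 ± 0.38, 0.0636). Of the targets 6 rose and 7 fell (3 and 3 with equal weights). Atr, a DNA damage kinase, and Cdkn1a, a cell cycle inhibitor, both rose by 2.48 (7.33e-08 and 9.34e-08), and Cd80, a costimulatory ligand, by 2.92 ± 0.32 (1.3e-07), while S1pr1, a receptor that guides cells out of tissues, fell by 2.84 ± 0.33 (2.71e-07). Prdm1 was at 7.05, 7.07 and 6.90 in plasma cells, within the plasmablast range of 5.52 to 7.34, and did not pass (0.19 ± 0.27, 0.586), nor did Myc (-0.19 ± 0.40, 0.731). Among 14 corepressors and other partners of Bcl6 measured among 18 listed, 4 rose and 4 fell (1 and 2 with equal weights), with Ctbp1, a corepressor, down (-1.61 ± 0.18, 1.51e-07) and Tbl1x, a subunit of the NCoR complex, up (1.39 ± 0.17, 5.97e-07). Sdc1 was the 1 of 8 plasma cell genes that passed, lower by 4.87 ± 0.58 (3.58e-07).

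**Figure D2:**
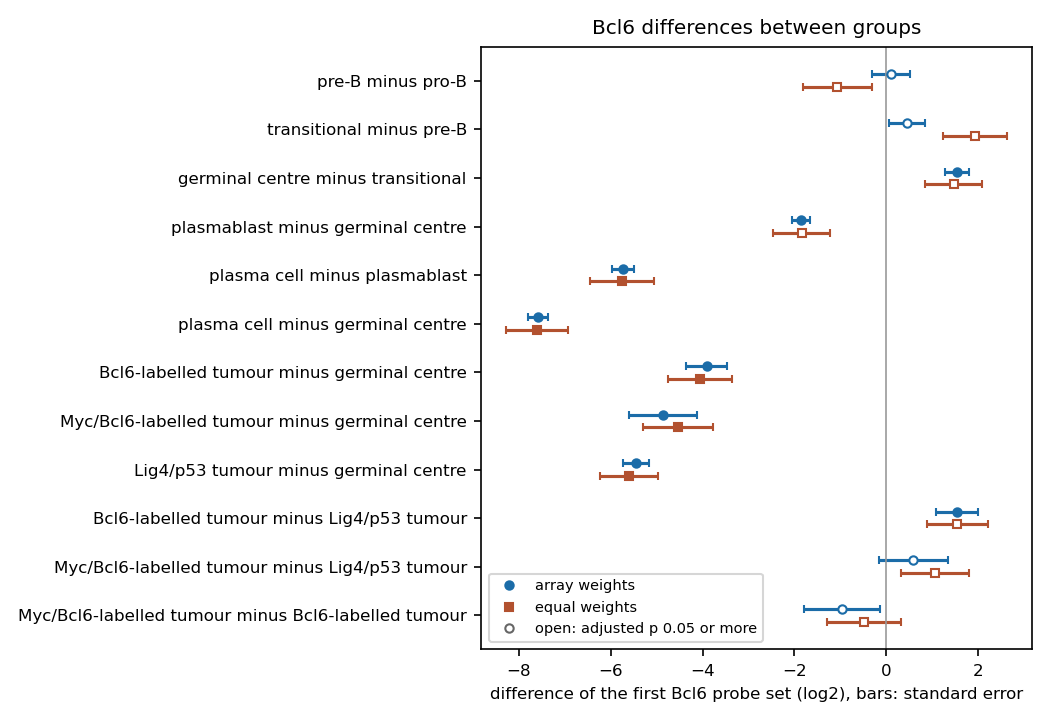
Difference of the first Bcl6 probe set in the 12 comparisons (log2, with standard errors), with array weights as circles and equal weights as squares, filled where the adjusted p is under 0.05. The plasma cell differences of -5.73 and -7.59 are the largest, and the values for germinal centre minus transitional cells, plasmablasts minus germinal centre cells and Bcl6-labelled minus Lig4/p53 tumours pass with array weights alone.

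In the tumours Bcl6 lay below the germinal centre level, also in the models that carry altered Bcl6. On the first probe set the tumours labelled Bcl6 had 6.23, 7.13, 6.79 and 8.52, against 11.28, 11.40, 11.24, 11.57 and 10.63 in germinal centre cells. The highest tumour value lies more than 2 log2 units under the lowest germinal centre array. Bcl6 was 15-fold lower (-3.91 ± 0.45, adjusted p = 2.61e-08, weighted limma), where 40.3% of probe sets passed, with an exact permutation p of 0.00794 (adjusted 0.0228). With equal weights the difference was -4.06 ± 0.70 (limma adjusted p = 5.99e-05, 27.3% passing). Leaving out 1 array labelled Bcl6 gave -3.43 (without replicate 1) to -4.95 (without replicate 4). The second probe set had 4.49, 4.50, 3.47 and 4.58 in these tumours, all below the 4.98 to 6.69 of germinal centre cells (-2.19, limma adjusted p = 7.79e-05).

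The tumours labelled Myc/Bcl6 had 4.18, 6.77 and 9.10 on the first probe set, against 10.63 to 11.57 in germinal centre cells. They include the lowest and the highest value among all 13 tumours, and each is below all germinal centre arrays. Bcl6 was 29.1-fold lower (-4.86 ± 0.75, adjusted p = 8.48e-06, weighted limma, exact permutation p 0.0179, adjusted 0.0307), where 41.8% of probe sets passed. With equal weights it was -4.54 ± 0.76 (limma adjusted p = 2.64e-05, 47.2% passing). It was -3.32 (0.0111) without replicate 1 and -5.78 (3.9e-05) without replicate 3. The call was kept in all 8 fits that left out 1 array of these groups, replicate 2 included. On the second probe set these tumours had 5.12, 4.82 and 4.33, in the opposite order, overlapped with germinal centre replicate 5 and did not pass with array weights (-1.56, limma adjusted p = 0.0686), while with equal weights they did (-1.42, 0.00964). Replicate 1, lowest on the first probe set, had a B lineage marker mean of 5.58, against 8.06 and 8.02 in replicates 2 and 3. Replicate 2 had a hepatocyte marker mean of 12.21 over 5 of 6 listed genes, while all other arrays of the series were at 5.79 or below. The part of either array's other cells in its Bcl6 value was not tested.

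Lig4/p53 tumours ran from 4.78 to 6.44 on the first probe set with a median of 5.80, against 10.63 to 11.57 in germinal centre cells, median 11.28. All 6 lie below every sorted array other than those of plasma cells and the pre-B array of narrow spread. Bcl6 was 43.7-fold lower (-5.45 ± 0.28, adjusted p = 7.85e-17, weighted limma, exact permutation p 0.00216, adjusted 0.0228), where 42.6% of probe sets passed, and with equal weights -5.60 ± 0.63 (9.1e-08, 16.1% passing). The second probe set ran from 3.28 to 3.98 (median 3.75), below all germinal centre arrays (-2.63, limma adjusted p = 2.63e-10).

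All 3 tumour comparisons share the 5 germinal centre arrays, and none of the tumour arrays reached the 18S level of germinal centre cells (4.14 to 6.15, against 10.04 to 11.13). With 18S as a covariate the differences were -1.92 ± 1.70 for the tumours labelled Bcl6, -2.89 ± 1.77 for those labelled Myc/Bcl6 and -3.77 ± 1.41 for Lig4/p53 tumours, with limma adjusted p of 0.689, 0.329 and 0.487. With the 3′ minus 5′ difference they were -3.17 ± 0.82, -4.24 ± 0.93 and -5.08 ± 0.42 (0.0123, 0.00142 and 1.16e-10). Tumour origin and 18S level cannot be told apart in these arrays. The B lineage marker mean, over 6 of 7 listed genes, was 8.03 to 8.62 in tumours labelled Bcl6 and 8.61 to 8.93 in Lig4/p53 tumours, against 9.25 to 9.87 in germinal centre cells. Cd79a, a chain of the B-cell receptor, averaged 6.96 ± 0.18 and 6.57 ± 1.02 in the tumours labelled Bcl6 and Myc/Bcl6, 10.22 ± 0.47 in Lig4/p53 tumours and 10.92 ± 0.42 in germinal centre cells (SD, n = 4, 3, 6 and 5). Macrophage marker means were 6.68 to 9.14 in tumours labelled Bcl6, 6.82 to 8.06 in those labelled Myc/Bcl6 and 4.90 to 6.33 in Lig4/p53 tumours, against 5.71 to 7.05 in germinal centre cells.

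**Figure D3:**
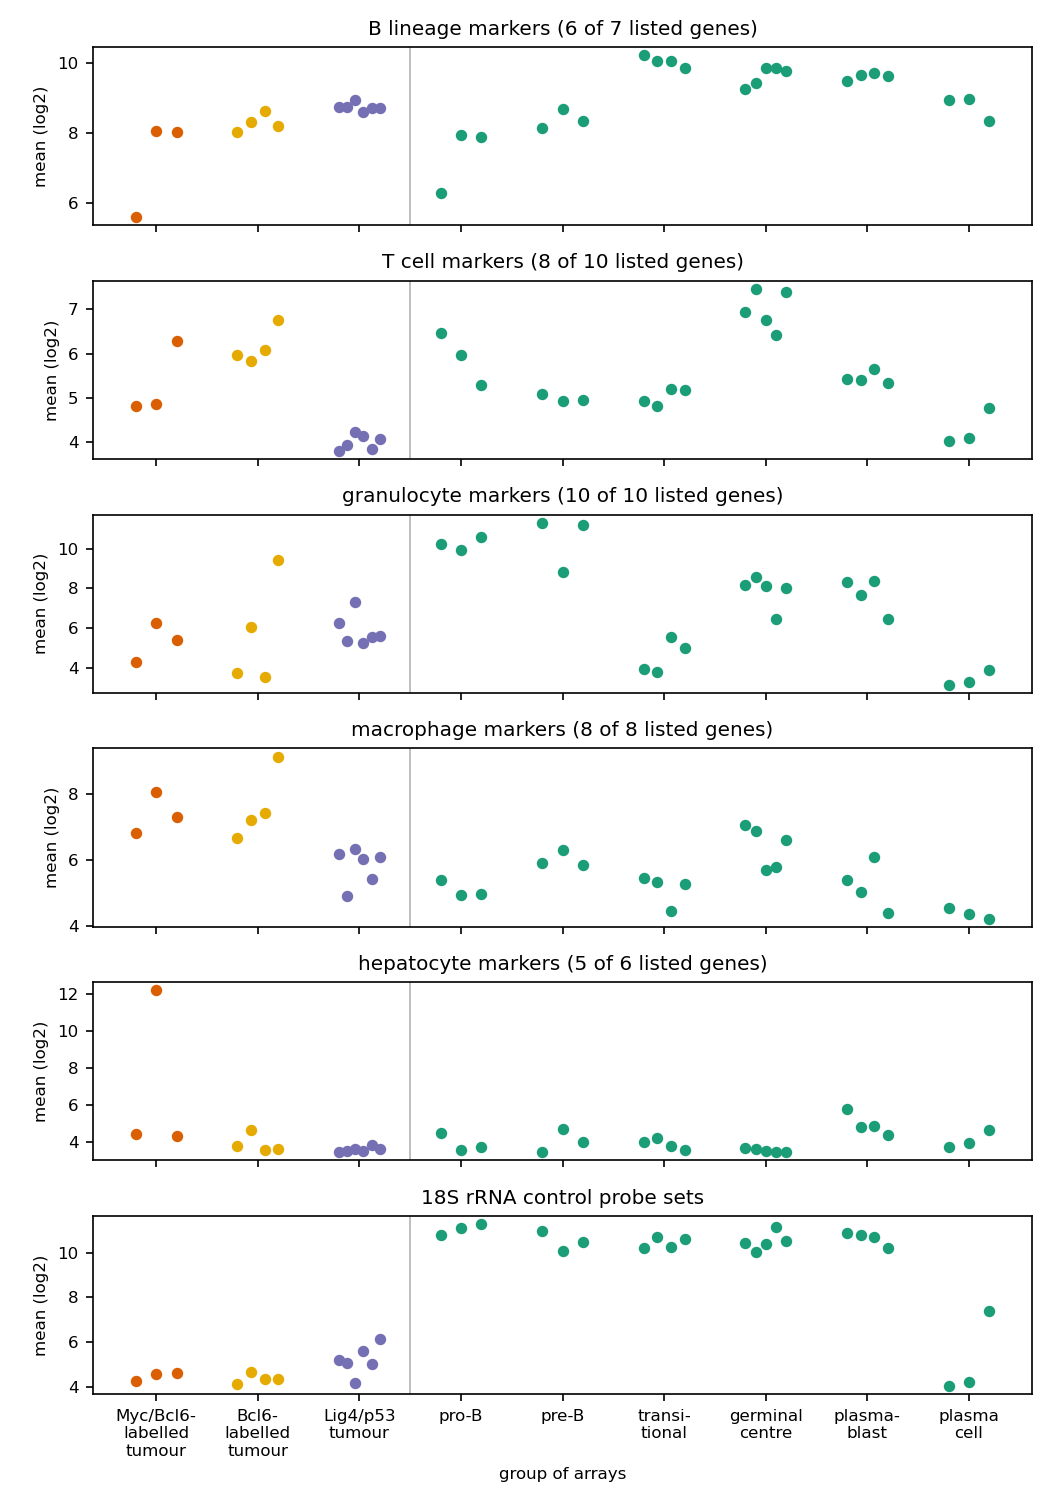
Mean log2 intensity of marker lists for B lineage, T cells, granulocytes, macrophages and hepatocytes, and of the 18S rRNA control probe sets, 1 point per array, by group. The 18S controls are at 10.04 or above in all sorted arrays except the plasma cells and at 6.15 or below in all tumours, and 1 array labelled Myc/Bcl6 stands at 12.21 for hepatocyte markers.

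Most germinal centre genes that passed the test were lower in the tumours, as Bcl6 was. Of its 8 genes, 1 rose and 6 fell in tumours labelled Bcl6, 0 and 4 in those labelled Myc/Bcl6, and 2 and 6 in Lig4/p53 tumours. Over all probe sets 20.2% were higher and 20% lower in tumours labelled Bcl6, 22.3% and 19.5% in those labelled Myc/Bcl6, and 23.2% and 19.4% in Lig4/p53 tumours. Gcsam was at 2.68 to 3.78 in tumours labelled Bcl6, 3.13 to 4.00 in those labelled Myc/Bcl6 and 2.36 to 3.16 in Lig4/p53 tumours, against 6.17 to 9.05 in germinal centre cells. None of these tumour ranges touches the germinal centre range, with differences of -4.91 ± 0.39, -4.30 ± 0.65 and -5.11 ± 0.24 (limma adjusted p of 1.72e-11, 6.32e-06 and 1.58e-17). Lmo2, a transcriptional cofactor of germinal centre cells, was lower by 1.85 ± 0.35, 4.54 ± 0.59 and 4.51 ± 0.22 (8.1e-05, 6.51e-07 and 2.6e-17). Ezh2 rose in tumours labelled Bcl6 (0.88 ± 0.35, 0.0411) and in Lig4/p53 tumours (0.74 ± 0.21, 0.00434). With equal weights neither rise passed (0.151 and 0.155), and that in tumours labelled Bcl6 was also lost without the 3 arrays of narrow spread.

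Of 18 regulators of Bcl6, 1 was higher and 10 lower in tumours labelled Bcl6 (20.2% and 20% of all probe sets), 1 and 12 in those labelled Myc/Bcl6 (22.3% and 19.5%) and 0 and 11 in Lig4/p53 tumours (23.2% and 19.4%). With equal weights these counts were 1 and 8, 1 and 13, and 0 and 4. Of all probe sets 27.3%, 47.2% and 16.1% then passed, in either direction. The list medians were -1.08, -2.76 and -0.58, beside 0.13, 0.30 and 0.05 over all probe sets. Pax5 of this list is also a B lineage marker. The B lineage marker mean averaged 8.29, 7.22 and 8.74 in these tumours, against 9.63 in germinal centre cells. Its part in the differences of the regulators was not tested. Mef2b was lower by 1.83 ± 0.44 in tumours labelled Bcl6, 2.78 ± 0.73 in those labelled Myc/Bcl6 and 3.82 ± 0.27 in Lig4/p53 tumours (limma adjusted p of 0.00117, 0.00334 and 2.39e-13). Ebf1 fell by 3.64 ± 0.37 in tumours labelled Bcl6 (2.98e-09), Spib by 4.99 ± 0.66 in those labelled Myc/Bcl6 (9.18e-07) and Mef2c, a partner of Mef2b in B cells, by 2.62 ± 0.22 in Lig4/p53 tumours (8.62e-12). Irf4 had 8.88, 6.44, 6.67 and 7.76 in tumours labelled Bcl6, against 9.38 to 11.39 in germinal centre cells, and fell by 2.87 ± 0.49 (1.91e-05). Stat3, a known activator of Bcl6, was the regulator that rose in tumours labelled Bcl6 (1.06 ± 0.25, 0.00112), while in Lig4/p53 tumours it fell (-1.19 ± 0.15, 9.42e-08). Irf8 fell in Lig4/p53 tumours (-1.51 ± 0.22, 1.07e-06) and in those labelled Myc/Bcl6 (-2.97 ± 0.61, 0.000309), and did not pass in those labelled Bcl6 (0.62 ± 0.37, 0.177).

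**Figure D4:**
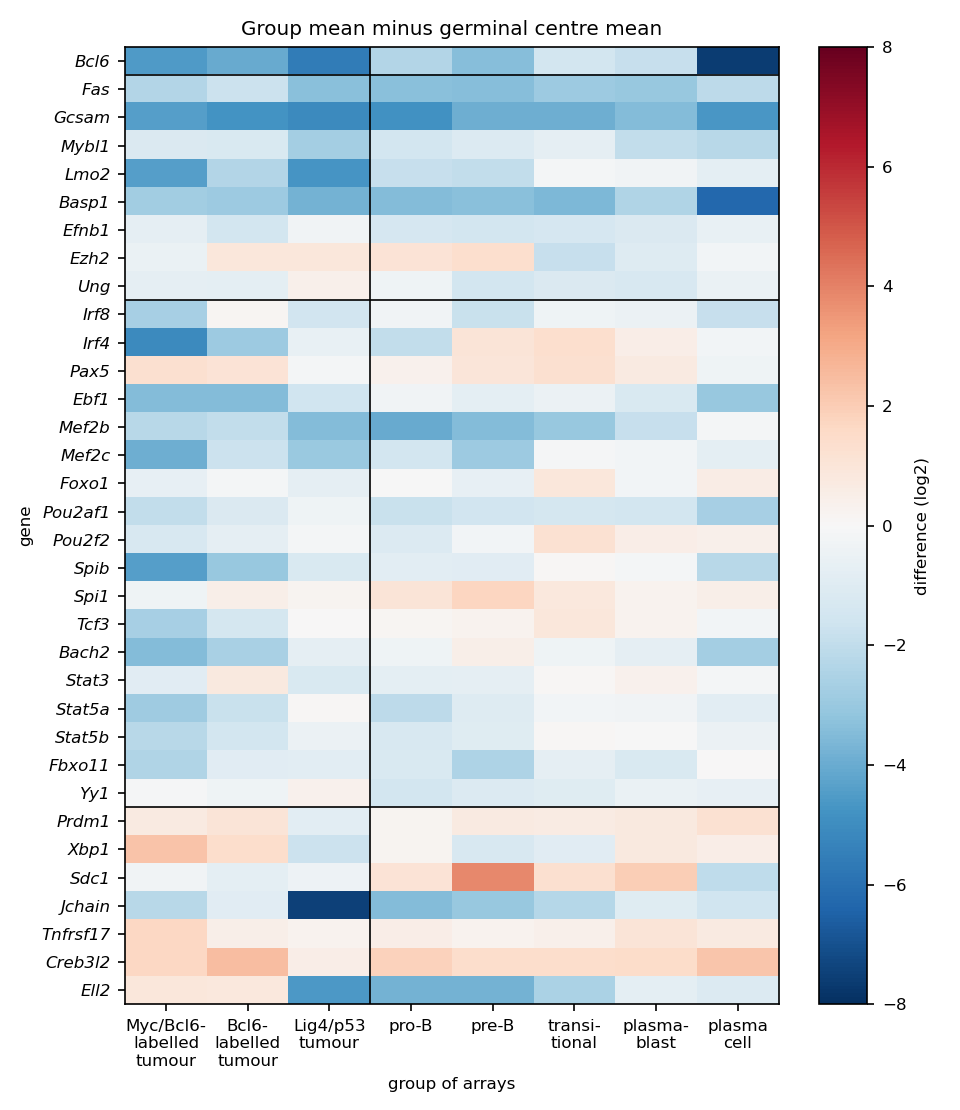
Group mean minus germinal centre mean (log2, colour) for Bcl6 (first probe set), 8 germinal centre genes, 18 regulators of Bcl6 and 7 further plasma cell genes, by group. Bcl6 and Gcsam are below the germinal centre mean in every column, and Mef2b is below it in each column, least in plasma cells.

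Bcl6 partners and targets were counted in the same way. Of 14 partners, 1 rose and 8 fell in tumours labelled Bcl6 against germinal centre cells (20.2% and 20% of all probe sets), 1 and 7 in those labelled Myc/Bcl6 (22.3% and 19.5%), and 5 and 1 in Lig4/p53 tumours (23.2% and 19.4%). With equal weights these were 1 and 7, 1 and 7, and 1 and 0, where 27.3%, 47.2% and 16.1% of probe sets passed. Ctbp1 was at 5.41 to 8.05 in tumours labelled Bcl6 and 4.61 to 6.04 in those labelled Myc/Bcl6, against 9.98 to 10.46 in germinal centre cells, with 9.74 to 10.36 in Lig4/p53 tumours. The first 2 of these groups stand apart from germinal centre cells and the Lig4/p53 range overlaps them, with differences of -2.57 ± 0.25, -5.03 ± 0.41 and 0.00 ± 0.15 (limma adjusted p of 7.15e-10, 4.14e-10 and 0.997). Hdac3 fell in both altered Bcl6 models (-1.25 ± 0.28, 0.000585, and -2.57 ± 0.47, 8.11e-05), and Zbtb17, which encodes the Bcl6 partner Miz-1, rose in all 3 groups (2.11 ± 0.30, 1.41 ± 0.50 and 1.22 ± 0.18). The rise in tumours labelled Myc/Bcl6 (adjusted p = 0.0238) was lost without the array high in hepatocyte markers. After renewed quantile normalization 5 partners fell in tumours labelled Bcl6 and 3 in those labelled Myc/Bcl6. In these comparisons 4185 and 2601 of all probe sets were then lower, against 4534 and 4411 as deposited.

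Of 18 targets, 4 rose and 5 fell in tumours labelled Bcl6 against germinal centre cells (20.2% and 20% of all probe sets). With equal weights 3 rose and 5 fell, where 27.3% of probe sets passed in either direction. The array-weight counts became 7 and 9 without replicate 4, whose granulocyte mean of 9.42 and macrophage mean of 9.14 were the highest among tumours. Each of the other lists also gained calls in that fit, whose share over all probe sets is not given. Cdkn1a rose by 3.00 ± 0.48 (limma adjusted p = 7.4e-06) and Cd80 by 2.28 ± 0.43 (6.86e-05), while S1pr1 fell by 3.10 ± 0.41 (3.12e-07), as did Myc (-1.39 ± 0.44, 0.0113). Prdm1 did not pass (0.68 ± 0.38, 0.16). In those labelled Myc/Bcl6 1 rose and 8 fell (22.3% and 19.5% of all probe sets). With equal weights 2 rose and 8 fell, where 47.2% of probe sets passed in either direction. After renewed quantile normalization 1 rose and 4 fell, where 2528 of 22626 probe sets were higher and 2601 lower. Without the array high in hepatocyte markers 0 rose and 6 fell, in a fit whose share over all probe sets is not given. Among these tumours' targets Cd44 was down by 3.63 ± 0.64 (limma adjusted p = 5.49e-05) and Myc lower too (-3.22 ± 0.73, 0.000854), while Prdm1 did not pass (0.93 ± 0.64, 0.237). In Lig4/p53 tumours 4 rose and 11 fell (23.2% and 19.4% of all probe sets). With equal weights 3 rose and 6 fell, where 16.1% of probe sets passed in either direction. Prdm1 (-0.91 ± 0.23, limma adjusted p = 0.00178), Ccl3 (-4.75 ± 0.33, 1.78e-13) and S1pr1 (-2.42 ± 0.25, 1.12e-09) were down in these tumours, and Atr (2.28 ± 0.20, 2.23e-11) and Myc (2.66 ± 0.27, 5.94e-10) up.

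The tumour models were then set against each other. On the first probe set the tumours labelled Bcl6 had 6.23, 7.13, 6.79 and 8.52, against 4.78 to 6.44 (median 5.80) in Lig4/p53 tumours. Only the lowest array labelled Bcl6 falls within the Lig4/p53 range. Bcl6 was 2.91-fold higher (1.54 ± 0.45, adjusted p = 0.00683, weighted limma), where 37.3% of probe sets passed, with an exact permutation p of 0.00952 (adjusted 0.0228). The call was lost without replicate 3 of the tumours labelled Bcl6 (0.79, limma adjusted p = 0.138) or without replicate 4 (0.50, 0.215), with array weights estimated anew, and with equal weights (1.55, 0.0901, 24.6% passing). Replicate 4 had both the highest Bcl6 value of its group and its highest granulocyte, macrophage and T cell marker means (9.42, 9.14 and 6.75), whose part in the difference was not tested. Nor was it tested for the markers in which all 4 arrays labelled Bcl6 stood above all 6 of Lig4/p53 tumours. These were the T cell mean (5.83 to 6.75, against 3.80 to 4.23), the follicular helper T cell mean (5.42 to 5.66, against 3.54 to 4.93) and the macrophage mean (6.68 to 9.14, against 4.90 to 6.33). The follicular helper mean includes Cxcr5, also a mature B-cell marker. By the second probe set the tumours labelled Bcl6 had 4.49, 4.50, 3.47 and 4.58, against 3.28 to 3.98, and the difference did not pass (0.44, limma adjusted p = 0.433).

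On the first probe set tumours labelled Myc/Bcl6, with 4.18, 6.77 and 9.10, overlapped both other models. They differed from Lig4/p53 tumours by 0.59 ± 0.75 (limma adjusted p = 0.538, 39.3% of probe sets passing) and from tumours labelled Bcl6 by -0.96 ± 0.83 (0.524, 4.65% passing). The exact permutation p were 0.333 and 0.8. With equal weights the differences were 1.07 (0.237, 42.6% passing) and -0.48 (0.802, 3.04% passing). Neither difference of this probe set passed. On the second, the tumours labelled Myc/Bcl6 had 5.12, 4.82 and 4.33, all above the 3.28 to 3.98 of Lig4/p53 tumours. That difference was 1.07 ± 0.69 with array weights (limma adjusted p = 0.213) and passed with equal weights (1.09 ± 0.42, 0.0384). Its exact permutation p of 0.0119 is the smallest these group sizes allow (adjusted 0.0537). Against tumours labelled Bcl6, with 3.47 to 4.58, the second probe set differed by 0.63 ± 0.77 and did not pass (limma adjusted p = 0.665).

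Tumours labelled Bcl6 had 8 of 18 targets higher and 3 lower than Lig4/p53 tumours (median 0.92, against 0.05 over all probe sets, with 16.4% of probe sets higher and 20.9% lower). With equal weights 6 targets were higher and 1 lower, where 24.6% of probe sets passed in either direction. Without replicate 4 of the tumours labelled Bcl6, 6 were higher and 3 lower, in a fit whose share over all probe sets is not given. Macrophage and T cell marker means also separated these groups, and their part in the differences of the targets was not tested. Ccl3 was higher by 4.21 ± 0.54 (limma adjusted p = 2.4e-07), Id2 by 3.01 ± 0.47 (5.64e-06) and Batf, a leucine zipper factor, by 2.78 ± 0.40 (1.52e-06). Prdm1 had 7.64, 7.30, 5.55 and 6.99 in tumours labelled Bcl6, against 3.92 to 5.82 in Lig4/p53 tumours. All but replicate 3 stand above the Lig4/p53 range, and Prdm1 was higher by 1.59 ± 0.38 (0.00133). Myc was lower by 4.04 ± 0.44 (1.1e-08), with 5.77 to 7.19 against 10.10 to 11.31. Of 8 plasma cell genes 5 were higher and 1 lower (5 and 0 with equal weights), among them Ell2, an elongation factor for immunoglobulin transcripts (5.74 ± 0.45, 1.52e-11), Jchain, the joining chain of secreted antibody (7.17 ± 0.67, 6.21e-10), and Xbp1, a secretory regulator (3.39 ± 0.48, 1.17e-06). Of the 18 regulators 6 were higher and 7 lower (4 and 5 with equal weights), with Stat3 (2.25 ± 0.25, 2.27e-08) and Irf8 (2.13 ± 0.37, 2.33e-05) up and Ebf1 (-2.14 ± 0.37, 2.91e-05) and Irf4 (-2.29 ± 0.49, 0.000391) down.

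Relatives of Bcl6 in the BTB zinc finger family did not move as a block. Bcl6b, the closest relative, stayed between group means of 3.23 and 4.28 in all 9 groups and was lower in germinal centre than in transitional cells (-0.73 ± 0.28, limma adjusted p = 0.0412, and 0.222 with equal weights). Its arrays overlapped, at 3.20 to 4.14 in germinal centre cells and 3.70 to 5.04 in transitional cells. Whether Bcl6b was above background was not tested. Of 13 relatives, a list that shares Zbtb17 with the partners, 4 rose and 4 fell in that comparison, where 13% of probe sets were higher and 30.9% lower. With equal weights 1 rose and 2 fell, where 5.27% of probe sets were higher and 8.68% lower. Zbtb20 was at 9.74 to 10.27 in germinal centre cells, against 8.18 to 8.44 in transitional cells, without overlap (1.70 ± 0.20, 4.38e-06). It fell in plasmablasts against germinal centre cells (-1.35 ± 0.15, 3e-06) and in Lig4/p53 tumours (-3.89 ± 0.14, 2.18e-20). Zbtb32, a relative expressed in plasma cells, rose by 2.53 ± 0.25 between plasmablasts and plasma cells (3.52e-08).

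The genes with a course most like that of Bcl6 were ranked by Pearson r with the first probe set over the 32 arrays left without the 3 of narrow spread, among 20378 candidate probe sets. The points share groups, RNA quality and arrays, so r is a description with no test. The 8 highest were Fos (0.913) and Klf6 (0.876), transcription factors induced by stimulation, Iqgap1 (0.904), a scaffold protein, Rgs2 (0.892), a regulator of G protein signalling, the T cell receptor segment Trbv1 (0.891), Satb1 (0.884), a chromatin organizer, Nol7 (0.883), a nucleolar protein, and Nrip1 (0.882), a nuclear receptor corepressor. The second Bcl6 probe set had r = 0.813 and rank 56. Over all 35 arrays 3 of these 8 stayed among the 8 highest. Within the 12 tumour arrays left, r ran from 0.449 for Satb1 to 0.928 for Rgs2, and within the 20 sorted arrays from 0.856 for Nrip1 to 0.937 for Satb1.

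Fos averaged 4.44 ± 0.86 in plasma cells, against 11.47 ± 0.67 in germinal centre cells (SD, n = 3 and 5). Satb1 averaged 3.11 ± 0.07 in plasma cells, against 9.78 ± 0.35 in germinal centre cells. In plasmablasts, where Bcl6 was lower than in germinal centre cells, Fos averaged 11.10 ± 1.17 and Satb1 10.07 ± 0.51 (SD, n = 4), within 1 SD of their germinal centre means. Trbv1 averaged 9.03 ± 0.43 in germinal centre cells, whose T cell marker mean was also the highest of the 9 groups. The lowest r belonged to Polr1a (-0.946), the large subunit of RNA polymerase I, Dis3 (-0.901), a nuclease of the RNA exosome, Gart (-0.898), of purine synthesis, and Gsto1 (-0.896), a glutathione transferase. Polr1a averaged 8.02 ± 0.18 in plasma cells, against 5.67 ± 0.19 in germinal centre cells.

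**Figure D5:**
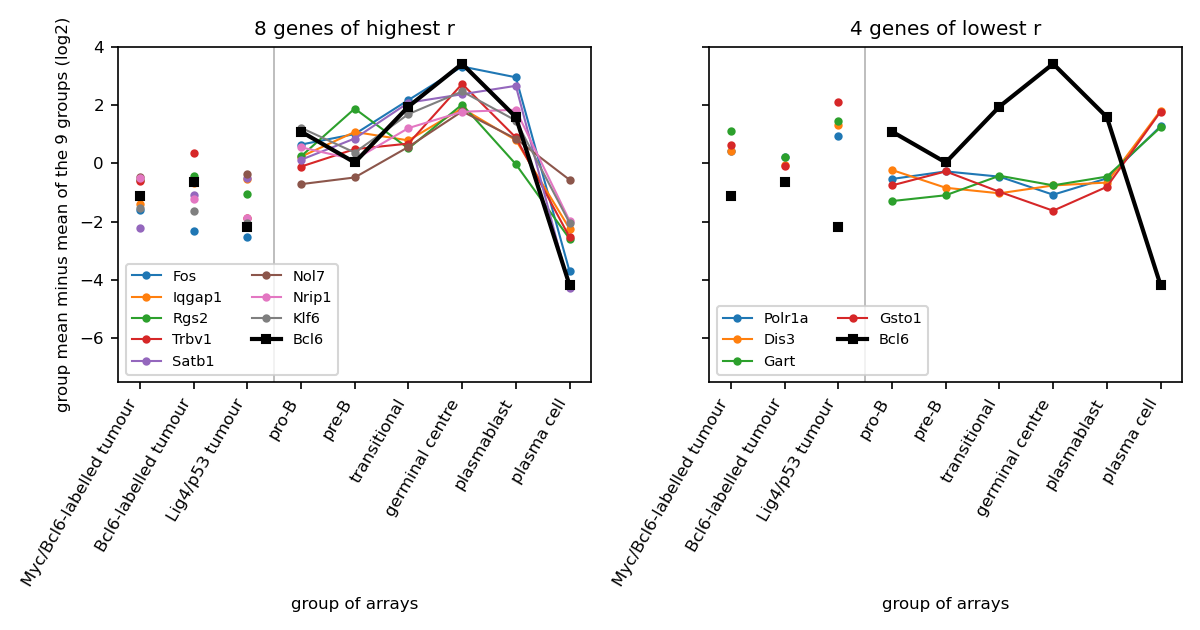
Group means minus the mean of the 9 groups (log2) for Bcl6 (first probe set, black) beside the 8 genes of highest r, left, and the 4 of lowest r, right. Lines join the sorted stages and tumours are points, and Bcl6 peaks in germinal centre cells and is lowest in plasma cells.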

How the data were processed

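Sorted B cells and lymphoid tumours were profiled on Affymetrix Mouse 430A2 arrays from Tripure RNA amplified with NuGen Ovation V2, per the labels. The authors deposited log2 intensities, 1 for each probe set and array, from RMA, as the submitters' processing notes name it without a version. Of 22690 probe sets, 64 controls were left out of the tests. Arrays give no counts, so their number limits the precision.

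Groups came from the labels. Differences were contrasts in limma 3.58.1 (R 4.3.3) with array weights, because the arrays differed in spread, on the 22 sorted arrays for normal stages and on all 35 for tumours. A probe set was called at a Benjamini-Hochberg adjusted p under 0.05 over all 22626 probe sets. Exact two-sided permutation tests of Bcl6 were adjusted over the 12 comparisons. Probe sets were named from the platform annotation: 20380 had 1 symbol, 691 several and 1555 none. A listed gene was represented by its probe set of highest mean. Per list and comparison, up to 4 called members of smallest p could be named, with Bcl6b, Irf8, Irf4, Prdm1, Myc and Hdac3, and the 8 highest and 4 lowest genes by r. Sdc1, Cd79a and Cd3e as label checks, and in tumours Mef2b, Stat3, Ezh2 and Zbtb17 beyond those 4, were chosen after their values were seen. The gene, the 6 lists of related genes, the marker lists and the tests were chosen with earlier results of these data known. Replicate numbers did not pair the arrays (correlations of deviations from -0.49 to 0.38 between pre-B and pro-B cells). The fits were also run on simulated arrays. Their noise was drawn with the array weights estimated here, so these runs cannot decide between array and equal weights. Figures were drawn with matplotlib 3.10.9.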

Additional observations from a re-analysis of the deposited data

Results flagged for a closer look

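On the second Bcl6 probe set, replicate 3 of the tumours labelled Bcl6 had 3.47, while the other 3 arrays of that group had 4.49, 4.50 and 4.58. The gap to the nearest array was 0.923 of the group's whole range. On the first probe set the same array had 6.79, inside its group. In 10 groups of values examined in this way 1 stood out, and chance flags about 1 in 20.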

How the results depend on the processing

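Apart from single left-out arrays, 135 alternative values of the first Bcl6 probe set kept direction and call, 11 values of called differences no longer passed, and 4 values of 1 uncalled difference turned. With equal weights germinal centre minus transitional cells was 1.47 (limma adjusted p = 0.115), plasmablasts minus germinal centre cells -1.84 (0.212) and tumours labelled Bcl6 minus Lig4/p53 tumours 1.55 (0.0901), none past the threshold. Over all 35 arrays with equal weights the first pair of these were 1.47 (0.159) and -1.84 (0.291). The uncalled pre-B minus pro-B difference turned to -1.07 in both equal-weight fits, to -0.09 with the 3′ minus 5′ covariate and to -0.05 with the 18S covariate. With the strain covariate germinal centre minus transitional cells was 0.64 (0.94). The 18S covariate, chosen after seeing the data like the other RNA covariate and the all-array fits, gave -4.16 for plasma cells minus plasmablasts, -6.11 for plasma cells minus germinal centre cells, and against germinal centre cells -1.92 in tumours labelled Bcl6, -2.89 in those labelled Myc/Bcl6 and -3.77 in Lig4/p53 tumours, none past the threshold. The cause was not tested. On the second probe set the uncalled pre-B minus pro-B difference turned to 0.60 in both equal-weight fits, 0.22 after renewed quantile normalization, 1.06 with strain and 0.28 with the replicate block, and germinal centre minus transitional cells to -1.58 with strain. The replicate block changed no call of the first probe set, and the second gained a call for germinal centre minus transitional cells (0.71, 0.0492) and for tumours labelled Myc/Bcl6 minus germinal centre cells (-1.60, 0.0393). Calls of the second lost in such fits were those of plasmablasts minus germinal centre cells (-0.62 in both equal-weight fits, 0.818 and 0.761, and -0.95, 0.103, with these groups alone), plasma cells minus plasmablasts (-1.20 with the 3′ minus 5′ covariate and -1.09 with 18S), plasma minus germinal centre cells (-2.14 and -2.12), tumours labelled Bcl6 minus germinal centre cells (-1.46 and -2.39) and, with 18S alone, Lig4/p53 tumours minus germinal centre cells (-2.80). With equal weights it gained calls for tumours labelled Myc/Bcl6 minus germinal centre cells (-1.42, 0.00964) and minus Lig4/p53 tumours (1.09, 0.0384). The filter on dim probe sets gave no value for the second.

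Leaving out single arrays gave -2.15 to 0.50 for pre-B minus pro-B cells (-0.23 to 1.07 on the second probe set), 0.50 to 2.02 for tumours labelled Bcl6 minus Lig4/p53 tumours, -1.87 to 0.59 for tumours labelled Myc/Bcl6 minus those labelled Bcl6 and -0.33 to 2.13 for those labelled Myc/Bcl6 minus Lig4/p53 tumours. The other comparisons of the first probe set kept their calls and directions.

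Array weights and equal weights called 120 and 43 probe sets between pre-B and pro-B cells, 1745 and 1123 between transitional and pre-B cells, 9940 and 3158 between germinal centre and transitional cells, 4993 and 188 between plasmablasts and germinal centre cells, and 10869 and 2958 between plasma cells and plasmablasts. They called 12155 and 4083 between plasma and germinal centre cells, 9633 and 3635 between Lig4/p53 tumours and germinal centre cells, 8431 and 5560 between tumours labelled Bcl6 and Lig4/p53 tumours, and 1052 and 688 between tumours labelled Myc/Bcl6 and those labelled Bcl6. Between tumours labelled Bcl6 and germinal centre cells they called 9111 and 6181. Equal weights called more between tumours labelled Myc/Bcl6 and germinal centre cells (9457 and 10680) and between those tumours and Lig4/p53 tumours (8884 and 9645). The median of all probe sets was -0.28 as deposited for germinal centre minus transitional cells, -0.05 after renewed quantile normalization and -0.10 after equal medians, and 0.30, 0.11 and 0.26 for tumours labelled Myc/Bcl6 minus germinal centre cells. Of 434 calls of listed genes, 73 were lost after renewed quantile normalization and 19 after equal medians, and none turned. Arrays of 3 to 6 per group limit all of these values.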
